A study of Canis lupus familiaris with 2 samples.

Results

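The genes described here are 8 transcription factor genes of nephron and collecting duct identity, *PAX2*, *PAX8*, *HNF4A*, *LHX1*, *GATA3*, *EMX2*, *TFCP2L1* and *GRHL2*, taken by gene symbol from 23510 features measured by RNA sequencing. All 8 symbols were in the files. MDCK cells, an established line of canine kidney epithelial cells, were plated on a culture insert with a semipermeable membrane, kept under medium 2 cm high (no pressure load) or 50 cm high (pressure load), and taken at day 3 according to the labels. The cultures are referred to as 2 cm and 50 cm. The height of the medium sets the static water pressure on the cells, and both cultures received the same kind of serum-containing medium. No drug or genetic change is named for either. Each height was represented by 1 culture of the same line, of which neither a strain nor a clone is named, so no value has replicates and no difference could be set against replicate error. The comparison asks which of these factors MDCK cells express and whether their RNA levels changed under the pressure load.

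The kidney tubule is built from 2 lineages. The nephron, from the glomerulus to the distal convoluted tubule, forms from mesenchymal progenitors, and the collecting duct forms from the ureteric bud, an outgrowth of the nephric duct. *PAX2* and *PAX8* encode paired-box factors that specify both lineages, and LHX1, GATA3 and EMX2 act in the nephric duct and the ureteric bud. HNF4A is a nuclear receptor of the proximal tubule, whereas TFCP2L1 and GRHL2, members of the CP2 and grainyhead families, maintain distal and collecting duct epithelium.

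Levels are given as FPKM, the sequenced fragments of a gene corrected for exon length and library size, so that they can be compared between genes. A gene was counted as expressed above 1 FPKM in both cultures, the minimum the authors used, and 11057 features passed it. How many reads each library held is unknown. However, among 574 features with low values in each culture (over 0 but under 0.1 FPKM), 219 had nearly the same ratio between the cultures, that of 1 read against 1 read. The FPKM worth of a read was by this measure 9.77% higher at 50 cm. A listed value of 0 does not show that RNA was absent, since *ATP5O*, a subunit gene of the mitochondrial ATP synthase that cells with respiration need, was also listed at 0 FPKM in both cultures.

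MDCK cells expressed 6 of the 8 factors above 1 FPKM in both cultures, namely *PAX8*, *PAX2*, *GRHL2*, *GATA3*, *TFCP2L1* and *HNF4A*. *LHX1* lay near the minimum and *EMX2* was listed at 0 FPKM. None of the 6 expressed factors changed more than 2-fold or more than 1.5-fold between the media. Among all features above 1 FPKM in both cultures, 1.67% changed more than 2-fold and 7.19% more than 1.5-fold, and a count of 0 among 6 genes lies near this background. The 2-fold changes over all features numbered 185, of which 43 were higher and 142 lower at 50 cm. The paper gives a larger number of changed genes at the same stated minimum and threshold, and the reason for this difference was not tested. Higher and lower changes numbered 57 and 101 after quantile normalization, and 25 and 229 when ratios were divided by the worth of 1 read. That division gives ratios of read numbers and so removes the correction for library size.

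**Figure D1:**
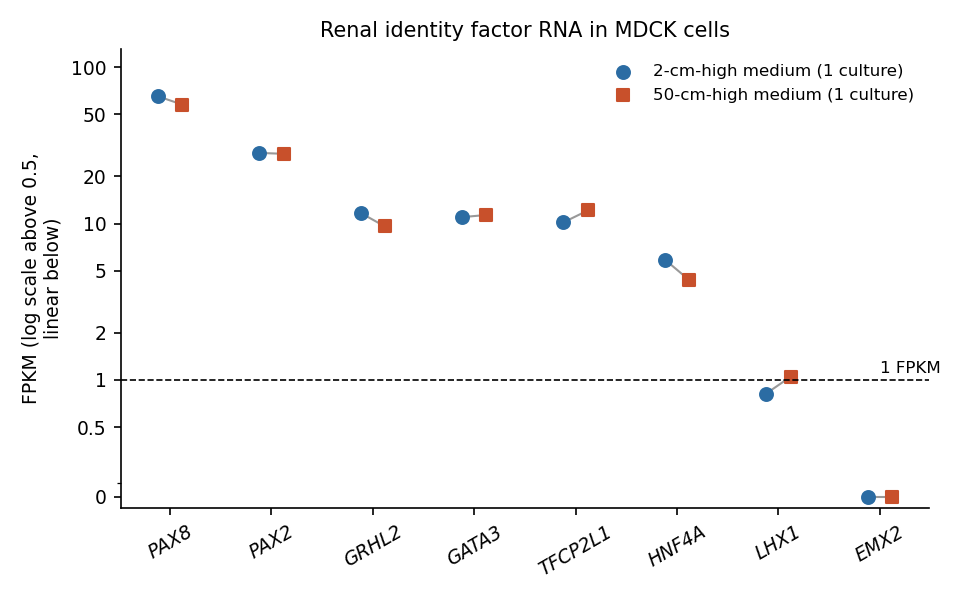
FPKM of the 8 factor genes (vertical axis, logarithmic above 0.5 and linear below) at 2 cm (circles) and 50 cm (squares), 1 culture each and without error bars. *PAX8* and *PAX2* lie highest in both cultures, *GRHL2*, *GATA3* and *TFCP2L1* form a group between 9.57 and 12.1 FPKM, *LHX1* straddles 1 FPKM and *EMX2* is at 0.

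*PAX8*, which encodes a factor of the early nephric lineage that adult tubule and thyroid epithelium retain, had the highest level of the 8 in both cultures. Its FPKM value was 65.1 at 2 cm and 57.6 at 50 cm, a ratio of 0.885. Of the features above 0 FPKM, 89.9% lay below *PAX8* at 2 cm and 87.8% at 50 cm. *PAX2*, its close relative, which acts together with PAX8 in forming the nephric duct, was second in both cultures, with 28.3 FPKM at 2 cm and 27.9 FPKM at 50 cm (ratio 0.987). *PAX8* was thus 2.30 times as high as *PAX2* at 2 cm and 2.06 times as high at 50 cm. Together, these paired-box genes made up 70.2% of the summed FPKM of the 8 genes at 2 cm and 69.0% at 50 cm. Of the other PAX genes listed for comparison, *PAX3* and *PAX5* were at 0 FPKM in both cultures. *PAX9* had 0.861 FPKM at 2 cm and 1.30 FPKM at 50 cm.

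*GATA3*, *TFCP2L1* and *GRHL2* followed at similar levels, which changed order between the media. *GATA3* encodes a zinc-finger factor of the nephric duct that adult collecting duct cells keep. Its value was 11.0 FPKM at 2 cm and 11.3 FPKM at 50 cm (ratio 1.033), and its place among the 8 genes was 4 in both. A RefSeq transcript of the class misc_RNA overlaps *GATA3* in the dog assembly UU_Cfam_GSD_1.0, and it is not stated whether the authors' counting separated strands. *TFCP2L1*, required for the mixed principal and intercalated cell make-up of the collecting duct, went from 10.2 to 12.1 FPKM (ratio 1.19) and from place 5 to place 3. *GRHL2*, which maintains the epithelial barrier through junction genes, went from 11.7 to 9.57 FPKM (ratio 0.819) and from place 3 to place 5. Without replicate cultures, the order of these neighbouring genes cannot be told from the error of single libraries.

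*HNF4A* showed the lowest ratio of the expressed factors. It had 5.88 FPKM at 2 cm and 4.35 FPKM at 50 cm, a ratio of 0.740 (log2 ratio -0.43). Features above 0 FPKM that lay below *HNF4A* amounted to 42.7% at 2 cm and 38.5% at 50 cm. The gene is known for driving brush-border transport and metabolism in the proximal tubule, and its RNA was present here beside that of the collecting duct factors.

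*LHX1* encodes a LIM homeobox factor that extends the nephric duct and patterns the early nephron. It had 0.819 FPKM at 2 cm and 1.05 FPKM at 50 cm, a ratio of 1.281. This ratio lay within 0.05% of that given by 6 reads at 2 cm and 7 reads at 50 cm, or by any common multiple of these numbers. If the reads were as few as 6 and 7, the exact (Clopper-Pearson) 95% interval of the ratio, for counting error only, would run from 0.369 to 4.61. It would be narrower for a multiple. A difference between the media was therefore not detectable for *LHX1* at the smallest depth that its ratio allows. The ratios of the 6 expressed factors matched none that 10 or fewer reads per culture can produce. *EMX2*, a homeobox gene of the ureteric bud, was listed at 0 FPKM in both cultures, so no ratio was formed.

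Of the 6 expressed factors, 2 were higher and 4 lower at 50 cm, and 47.4% of all 11057 features were lower. Their median log2 ratio was -0.10, whereas that of all features was 0.015. Dividing the ratios by the worth of 1 read, which removes the correction for library size, shifted all log2 ratios by -0.13. The median of all features was then -0.12, and *GATA3* turned to lower, which gave 1 higher and 5 lower. As a yardstick for single genes, the log2 ratios of the 500 features nearest in level were taken, and their scaled median absolute deviation was computed. These features were above 1 FPKM in both cultures for the 6 expressed factors, and above 0 FPKM in both for *LHX1*. Each log2 ratio was divided by this deviation, without first subtracting the median of the 500 features. This deviation is a spread across genes and not replicate error. It was between 0.188 and 0.295 around the 6 expressed factors. *HNF4A* lay at -1.47 deviations, *GRHL2* at -1.21, *TFCP2L1* at 1.13 and *PAX8* at -0.94. *GATA3* lay at 0.21 and *PAX2* at -0.093 deviations, and *LHX1*, in a less precise range, lay at 0.52, so none of the 7 genes with a ratio lay beyond 2 deviations. Some genes of the comparison lists described below did, among them *IRX3* at -3.06, *ERBB3* at -3.83 and *TBX2* at 2.91 deviations. In bulk RNA, fewer cells that express a gene and less RNA per cell cannot be told apart.

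**Figure D2:**
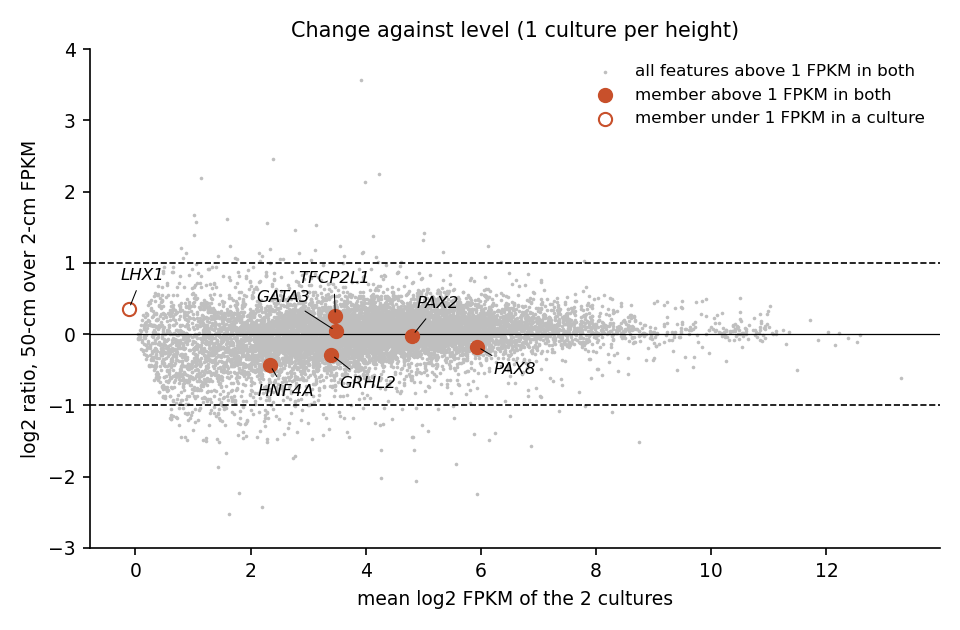
Log2 ratio of 50-cm over 2-cm FPKM (vertical axis) against the mean log2 FPKM of both cultures (horizontal axis) for all 11057 features above 1 FPKM in both (grey), with the 6 expressed factors filled and *LHX1* open. Dashed lines mark a 2-fold change. The filled points lie between -0.43 (*HNF4A*) and 0.25 (*TFCP2L1*), within the band of the other features.

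Relatives in the families of these factors were expressed at levels of their own. Of 14 relatives in the files, 6 were above 1 FPKM in both cultures, and none of these changed more than 2-fold. *UBP1* (36.1 FPKM at 2 cm and 38.5 FPKM at 50 cm, the order used for paired values from here on) and *TFCP2* (19.50 and 19.01 FPKM), the closest relatives of *TFCP2L1*, were both more abundant than it. *GRHL1* had 11.96 and 12.27 FPKM, beside the 11.7 and 9.57 FPKM of *GRHL2*, and *GRHL3* had 2.12 FPKM in each culture. Among the GATA genes, *GATA6* had 2.44 and 2.42 FPKM, and *GATA4* had 2.03 and 2.67 FPKM (ratio 1.312, the highest of the 6). *GATA2* stayed below the minimum, with 0.766 and 0.841 FPKM. *HNF4G*, the relative of *HNF4A*, went from 1.51 FPKM to 0.760 FPKM, a ratio of 0.503 with the second value below the minimum. *LHX2* and *LHX5* were listed at 0 FPKM in both cultures.

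Regulators of nephron progenitors were detected in part. Of 14 in the files, 5 were above 1 FPKM in both cultures and 6 were listed at 0 in both. The factors that define the self-renewing progenitor, *SIX2*, *CITED1* and *EYA1*, and also *WT1*, were among the latter. *OSR1*, a zinc-finger gene of the intermediate mesoderm from which the kidney arises, had 141 FPKM at 2 cm and 108 FPKM at 50 cm (ratio 0.768), above *PAX8* in both. *SALL1* had 11.6 and 10.9 FPKM, *MECOM* 10.8 and 11.2 FPKM, and *SIX4* 1.45 and 1.15 FPKM. None of the 5 changed more than 2-fold, and their median log2 ratio was -0.091.

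Other transcription factors of tubule segments and distal epithelium gave 14 of 23 in the files above 1 FPKM in both cultures, with 5 higher, 9 lower and none changed more than 2-fold. Their median log2 ratio was -0.14. The most abundant were *ELF3*, an epithelial ETS factor (157 and 111 FPKM), *KLF5*, a collecting duct Krüppel-like factor (121 and 111 FPKM), and *EHF*, another epithelial ETS factor (46.9 and 34.3 FPKM). *IRX3*, a homeobox gene of the intermediate nephron, had the lowest ratio, 0.643, going from 25.5 to 16.4 FPKM. *TBX2* had the highest ratio, 1.73, going from 6.29 to 10.9 FPKM. The intercalated cell factor *FOXI1* was listed at 0 FPKM in both cultures.

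**Figure D3:**
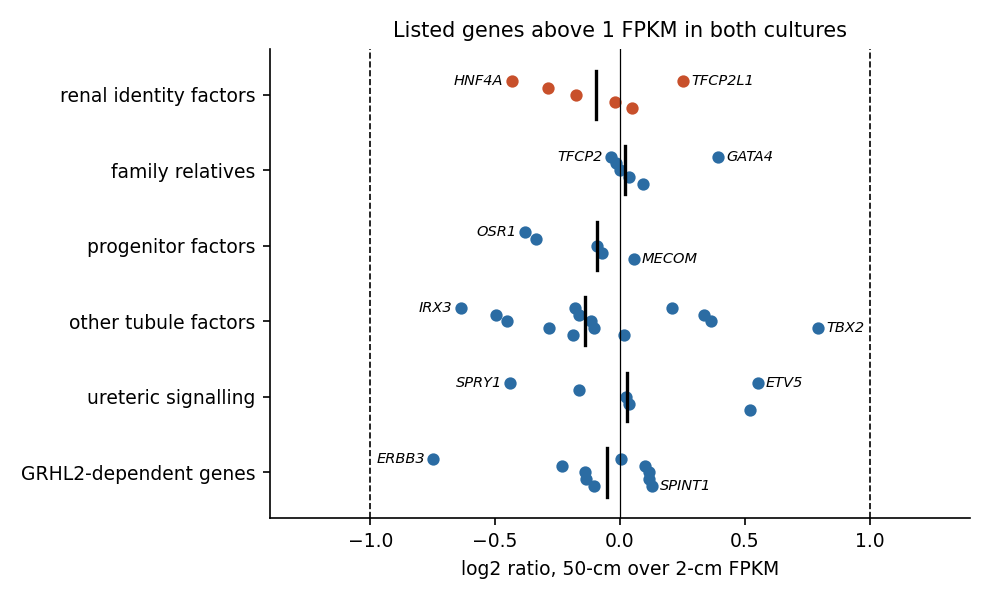
Log2 ratio of 50-cm over 2-cm FPKM (horizontal axis) for genes above 1 FPKM in both cultures in 6 lists, namely the identity factors, their family relatives, progenitor factors, other tubule factors, ureteric signalling and GRHL2-dependent genes (marker lists are not drawn), 1 point per gene, with a vertical bar at each median and dashed lines at a 2-fold change. No point of these 6 lists passes the dashed lines, and the outermost are *TBX2* at 0.79 and *ERBB3* at -0.75.

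Ureteric bud signalling genes, which act downstream of or beside these factors, were expressed in part. *RET*, the receptor that GATA3 and the PAX factors activate in the nephric duct, had 0.065 FPKM at 2 cm and 0.057 FPKM at 50 cm, although *GATA3*, *PAX2* and *PAX8* were well above 1 FPKM. Its ligand gene *GDNF* was listed at 0 in both. Of 13 genes in the files, 6 were above 1 FPKM in both cultures, with 4 higher, 2 lower and none changed more than 2-fold. The most abundant by the mean of both cultures were *SOX9* (34.0 and 30.3 FPKM), *ETV4* (21.1 and 21.5 FPKM) and *WNT7B*, a collecting duct Wnt ligand (17.5 and 25.0 FPKM). *ETV5* had the highest ratio (1.464, from 1.23 to 1.80 FPKM) and *SPRY1*, a feedback inhibitor of RET and FGF receptors, the lowest (0.737, from 3.76 to 2.77 FPKM).

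All 10 listed epithelial genes that depend on GRHL2 were above 1 FPKM in both cultures, and 5 were higher and 5 lower at 50 cm. None changed more than 2-fold, and their median log2 ratio was -0.051, beside -0.29 for *GRHL2* itself. The most abundant were *EPCAM* (253 and 216 FPKM), E-cadherin *CDH1* (211 and 229 FPKM) and the claudin gene *CLDN4* (112 and 122 FPKM). *ERBB3*, a receptor of the EGF receptor family, had the lowest ratio, 0.596, going from 44.4 to 26.5 FPKM. *SPINT1*, a protease inhibitor gene, had the highest, 1.092.

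Markers of kidney epithelium were present, but no segment of the tubule was represented in full. All 13 epithelial markers were detected and 12 were above 1 FPKM in both cultures, led by *KRT8* (1641 and 1561 FPKM), *KRT19* (1583 and 1400 FPKM) and *KRT7* (1461 and 1391 FPKM). At 50 cm, 2 of the 12 were higher and 10 lower, beside 47.4% lower over all features, with a median log2 ratio of -0.15. Only 1 of the 12 changed more than 2-fold. This was *CLDN2*, a leaky-junction claudin, which went from 35.5 to 17.2 FPKM (ratio 0.485, the lowest of the 12), and *CDH1* had the highest ratio, 1.082.

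Markers of the principal cell, the water- and sodium-reabsorbing cell of the collecting duct, were above 1 FPKM in both cultures for 4 of 12 genes. The water channel gene *AQP2* was listed at 0 in both, whereas *STC1*, which is not restricted to these cells, had 580 and 747 FPKM (ratio 1.289, the highest). *AQP3* had 3.63 and 2.53 FPKM. The sodium channel subunit gene *SCNN1A* had the lowest ratio, 0.669 (3.02 and 2.02 FPKM). The vasopressin receptor gene *AVPR2* had 1.83 and 1.85 FPKM. Of 14 intercalated cell markers in the files, 8 were listed at 0 in both, including *SLC4A1* and *ATP6V1G3*. The 2 above 1 FPKM in both cultures were *CA2*, a carbonic anhydrase gene also used by other cells (576 and 448 FPKM), and the proton pump subunit gene *ATP6V1B1* (43.5 and 43.1 FPKM).

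Among 18 proximal tubule markers, 7 were above 1 FPKM in both cultures, and the endocytic receptor *LRP2* and the organic anion transporter genes *SLC22A6* and *SLC22A8* were listed at 0. *HPN*, which encodes the protease hepsin, was the most abundant (108 and 105 FPKM). *MIOX*, an inositol oxygenase gene, went from 9.60 to 4.45 FPKM (ratio 0.464, the lowest), and *DAB2*, an endocytic adaptor gene, from 3.33 to 7.62 FPKM (ratio 2.287, the highest). These were the only 2 of the 7 past 2-fold, 1 in each direction, beside 1.67% of all features. In the thick ascending limb list, only *CLDN16* (5.19 and 4.40 FPKM) passed the minimum, and *UMOD* and *SLC12A1* were listed at 0. In the distal convoluted tubule list, *SLC12A3* and *PVALB* were listed at 0, and *WNK1* (22.7 and 24.9 FPKM) and *KLHL3* (3.55 and 3.06 FPKM) passed the minimum.

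Defining markers of other cell types were at or near 0. The podocyte gene *NPHS1*, the endothelial genes *PECAM1*, *TEK* and *EMCN*, the leukocyte gene *PTPRC* and the stromal genes *COL3A1*, *DCN* and *LUM* were listed at 0 in both cultures. Summed over 7 endothelial markers, the level was 0.510 FPKM at 2 cm and 0.277 FPKM at 50 cm. The genes of these lists above 1 FPKM in both cultures were *VIM* (1802 and 2380 FPKM), which cultured epithelium also expresses, *PODXL* (83.2 and 59.7 FPKM), *SYNPO* (3.63 and 4.35 FPKM) and *CD14* (4.82 and 3.77 FPKM). Over all 15 comparison lists, 69 of 172 genes in the files were above 1 FPKM in both cultures, and *DAB2*, *MIOX* and *CLDN2* were the 3 changed more than 2-fold (4.35% of the 69, beside 1.67% of all features).

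**Figure D4:**
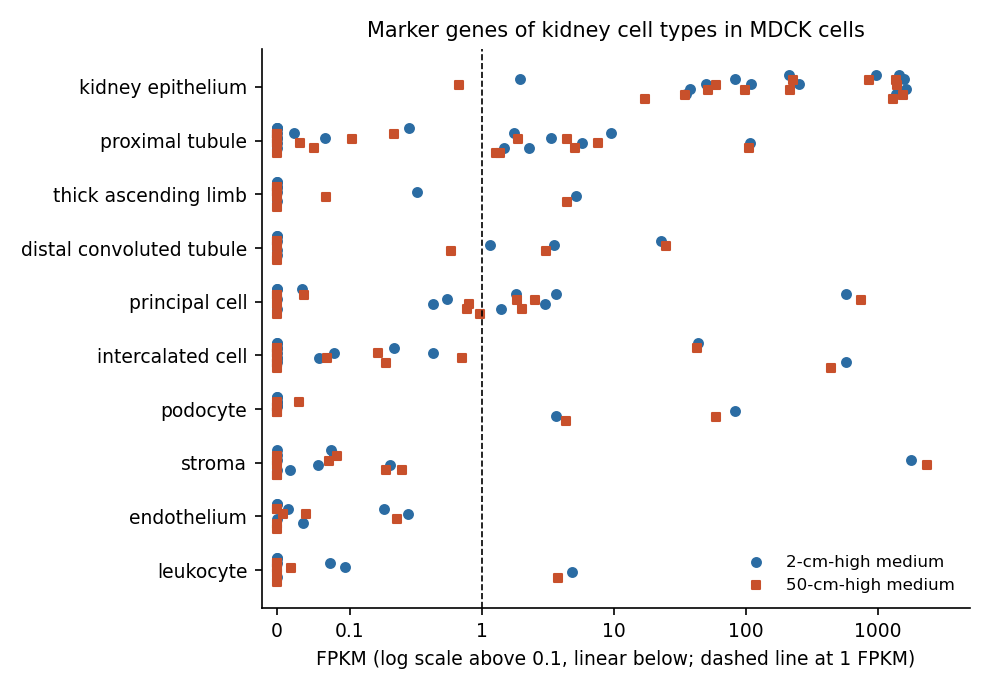
FPKM (horizontal axis, logarithmic above 0.1 and linear below) of marker genes of 10 cell types or tubule segments, 1 point per gene and culture, circles for 2 cm and squares for 50 cm. The kidney epithelium row lies above the dashed line at 1 FPKM apart from *CDH16* at 50 cm, and in every other row points stand at 0.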

How the data were processed

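RNA from MDCK cells was sequenced from 1 culture per medium height. The authors prepared stranded mRNA libraries, mapped single-end reads to CanFam3.1 with TopHat2 2.0.13, Bowtie2 2.2.3 and SAMtools 0.1.19, and deposited FPKM values calculated with Cuffnorm 2.2.1 (versions also in the submitters' processing notes). The gene annotation and the scaling method are not given in the sources used here.

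From the deposited values, the 50-cm FPKM was divided by the 2-cm FPKM with no pseudocount. Features had to exceed 1 FPKM in each culture, and a change was counted past 2-fold. With 1 culture per height, no test was run. FPKM holds no read numbers, so precision was judged from steps of whole reads in features below 0.1 FPKM. The factors and the comparison lists were chosen with earlier results of these data known. All 8 factors are named, and in each list the genes past 2-fold, the extreme ratios and the 3 most abundant, plus every family relative above 1 FPKM in either culture. A few listed genes that meet this rule are not reported here. Further genes at 0 or below the minimum are named as defining markers and were chosen after their values were seen. Alternatives were other minima, pseudocounts, scalings, removal of the library size correction and a 1.5-fold threshold. Genes neighbouring or overlapping the factors came by symbol from a RefSeq table of another assembly (UU_Cfam_GSD_1.0), in which all 8 matched. Scripts were tested on simulated data. Python 3.11.15, numpy 2.4.6, pandas 2.3.3, scipy 1.17.1 and matplotlib 3.10.9 were used. No sequences or positions are given, as no genome was used here.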

Additional observations from a re-analysis of the deposited data

How the results depend on the processing

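None of the 10 alternatives brought a factor past its fold threshold. The number of factors above the minimum, 6 in the report, was 7 at above 1 FPKM in either culture, above 0.1 or above 0 in both, 5 at above 5 in both, and 6 after quantile normalization. Other minima only chose which factors were counted and left each log2 ratio unchanged, so only pseudocounts and scalings could move one. The alternatives gave 61 log2 ratios of the factors, including these unchanged values. Of the 61, 60 kept their sign and moved by less than the spread among features of similar level. The other was *GATA3*, at -0.088 when ratios were divided by the worth of 1 read. That division gives ratios of read numbers, so its values here and below also carry the difference in library size. The 3 genes changed over the comparison lists became 12 with a minimum above 0, 1 above 5 FPKM, 1 with a pseudocount of 1, and 7 at 1.5-fold. The progenitor factor median, -0.091 in the report, became -0.34 at minima of 0.1 and 0 and -0.23 when divided by the worth of 1 read. The other tubule factor median, -0.14, became -0.0034 after quantile normalization and -0.27 by the worth of 1 read, and the GRHL2-dependent median, -0.051, became -0.0044 and -0.19. The epithelial marker median, -0.15, became -0.29 by the worth of 1 read. Some medians changed sign. The principal cell median, -0.25 over 4 genes at the minimum of 1 FPKM, became 0.013 with a minimum of 0.1 and 0.074 with a minimum of 0. With a minimum of 5 only *STC1* was left in that list, at 0.37. At a minimum of 5 the GRHL2-dependent median became 0.0030. The distal convoluted tubule median was -0.042 over 2 genes at the minimum of 1 FPKM, and with a minimum of 5 only *WNK1* was left, at 0.13. Quantile normalization gave -0.0079 for ureteric signalling and 0.020 for the distal convoluted tubule, and division by the worth of 1 read gave -0.10 for ureteric signalling and -0.12 for family relatives. No paired analysis was possible because each medium height has 1 culture. Read numbers are unknown, so no interval was formed for the expressed factors.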

Other observations

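These genes were picked after their values were seen. *CDH16*, which encodes the kidney-specific cadherin and is a known target of PAX8, had 1.96 FPKM at 2 cm and 0.676 FPKM at 50 cm, a ratio of 0.345. It was excluded from the count of changed genes only by the minimum of 1 FPKM in both cultures. *PAX8* itself had a ratio of 0.885. *MAF*, a factor of proximal and endothelial cells, had 0.546 FPKM at 2 cm and was listed at 0 at 50 cm. The genes that flank *LHX1* in the RefSeq table, *MRM1* (27.0 and 41.8 FPKM) and *AATF* (161 and 206 FPKM), had higher values at 50 cm. For *LHX1* itself, no difference was detectable at the smallest depth that its ratio allows. Genes flanking other factors had ratios on the same side of 1 as their factor in some cases and on the other side in others. *TAF3* beside *GATA3* had 4.92 and 5.21 FPKM, but *GATA3* itself lay at only 0.21 deviations, so its direction is not established. *TTPAL* had 20.1 and 23.1 FPKM beside *HNF4A*, which was lower at 50 cm. A shared change of neighbouring genes was not tested. The gene on one side of *EMX2*, *PDZD8*, had 24.4 and 27.9 FPKM, and that on the other, *RAB11FIP2*, had 7.70 and 7.55 FPKM, whereas *EMX2* was listed at 0.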
